A study of Mus musculus with 16 samples.

Results

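The genes described here are 5 that handle zinc inside a cell, taken by symbol from a table of 39179 genes measured in mouse splenic B cells. They are the metallothioneins Mt1 and Mt2, the metal-sensing transcription factor Mtf1, the zinc exporter Slc30a1 and the zinc importer Slc39a10. The group was chosen because Mt2 differs between the diets of the study, so the levels of these genes in each diet are given as a description and with no p-value. Calls among them are counted only beside the share of all genes called, and nothing is read from them. All 5 passed the filter on low counts, which kept 15021 genes.

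The B cells came from 15-week-old mice of the NOD.LT strain, which belongs to the non-obese diabetic mice and is prone to autoimmune diabetes. The mice had eaten NP, HAMS, HAMSA or HAMSB for the last 5 weeks, with no other treatment or allele named. HAMS is in this field the name of a diet with high-amylose maize starch, a starch that resists digestion, and HAMSA and HAMSB carry the acetylated and the butyrylated form of it. NP is also called Gordons in the labels and is taken here as the diet without such starch, which the labels do not state. Each diet had 4 libraries of poly(A) RNA, named here by diet and label number. The animals behind each library are not given in the labels, so a p-value measures only the spread between libraries. The gene counts per library summed to between 31707731 and 42752976 in NP, 31826691 and 37929476 in HAMS, 15053965 and 30723337 in HAMSA, and 34720317 and 46206200 in HAMSB. The cells were left over after antibodies had taken away the other spleen cells. The 5 B cell markers Cd79a, Cd79b, Ms4a1, Pax5 and Cd22 summed to between 6982 and 8832 CPM (counts scaled by TMM to a total of 1000000) in the 16 libraries.

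Zinc is a structural or catalytic part of very many proteins, and a cell keeps nearly all of it bound. Metallothioneins are small, cysteine-rich proteins that bind zinc and copper and give them up again under oxidative stress. When free zinc rises, Mtf1 enters the nucleus, binds metal response elements and switches on Mt1, Mt2 and Slc30a1, and it also lowers transcription of Slc39a10. Glucocorticoids, cytokines and oxidative stress raise metallothioneins as well. In B cells, Slc39a10 is known for its part in B cell survival and in signalling from the B cell receptor.

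Mt1 and Mt2 are neighbours on chromosome 8. In GRCm38 with the GENCODE M21 annotation, Mt2 (ENSMUSG00000031762) runs from 94172664 to 94173568 and Mt1 (ENSMUSG00000031765) from 94179082 to 94180327, both on the plus strand and 5513 bases apart. Mt4, Mt3, Mt2 and Mt1 lie there in this order. Mtf1 (ENSMUSG00000028890) lies on chromosome 4 from 124802104 to 124849800 on the plus strand. Slc30a1 (ENSMUSG00000037434) and Slc39a10 (ENSMUSG00000025986) both lie on chromosome 1, from 191906767 to 191913247 on the plus strand and from 46807544 to 46892852 on the minus strand.

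The stretches before the start of both metallothioneins are shown because Mtf1 is known to act on these genes through metal response elements. Each is the 250 bases before the RefSeq start in GRCm38.p6, plus strand, 5′ to 3′. Capitals mark the core of a metal response element, searched as TGCACNC or TGCGCNC on both strands.
Mt1, chr8:94178839-94179088: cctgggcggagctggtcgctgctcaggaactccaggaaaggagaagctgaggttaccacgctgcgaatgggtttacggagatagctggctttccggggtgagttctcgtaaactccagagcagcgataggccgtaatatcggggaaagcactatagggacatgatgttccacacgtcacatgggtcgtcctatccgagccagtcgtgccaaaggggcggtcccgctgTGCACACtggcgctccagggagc
Mt2, chr8:94172368-94172617: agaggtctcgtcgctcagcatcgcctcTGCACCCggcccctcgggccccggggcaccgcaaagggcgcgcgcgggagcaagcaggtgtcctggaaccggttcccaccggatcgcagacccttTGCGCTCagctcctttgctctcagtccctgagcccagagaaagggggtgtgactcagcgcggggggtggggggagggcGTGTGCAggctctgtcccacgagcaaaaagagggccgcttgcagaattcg
The Mt1 sequence held 1 match and the Mt2 sequence 3. At least 1 match was present in 21.4% and at least 3 in 1.26% of the 32851 RefSeq promoter windows of this length. With the 50 bases after the start included, Mt1 had 3 matches and Mt2 had 4, and 1.97% and 0.517% of windows had at least as many. The further Mt1 matches, TGCACTC and TGCGCTC, lie after the start used here and are not printed. The printed Mt1 sequence thus does not hold all matches near its start. Slc30a1 had 1 match before the start and 2 in the longer window, a count that 7.11% of windows reach. Neither Mtf1 nor either of the 2 windows of Slc39a10 had these letters. The antioxidant response element, searched as TGACNNNGC on both strands, was found once before the start of Mt2 and once before that of Slc30a1, against 10.2% of all windows with at least 1. Its match in the Mt2 sequence does not overlap the capitals.

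Mt2 was lowest in NP and highest in HAMSA. Its level in NP libraries 1, 3, 4 and 5 was 0.71, 0.74, 0.79 and 0.68 CPM. In HAMS libraries 1, 4, 5 and 6 it was 1.35, 2.28, 1.02 and 1.07 CPM, and in HAMSA libraries 1, 2, 3 and 6 it was 2.60, 4.10, 5.46 and 2.29 CPM. HAMSB libraries 1, 2, 5 and 6 stood at 2.01, 2.47, 0.70 and 1.47 CPM. All HAMS and HAMSA libraries lay above all NP libraries, and HAMSA libraries lay above HAMS libraries by a narrow margin. HAMSB spanned nearly the whole range from NP to the lowest HAMSA libraries, with library 5 at the NP level.

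These levels rest on few reads. Mt2 had between 23 and 107 counts in a library. The 82 counts of HAMSA library 3 gave 5.45 per 1000000 counted reads with an exact 95% binomial interval of 4.33 to 6.76. The 29 counts of NP library 5 gave 0.68 with an interval of 0.45 to 0.97. The intervals cover counting error only. The means were 0.73 ± 0.05 CPM in NP, 1.43 ± 0.59 in HAMS, 3.61 ± 1.46 in HAMSA and 1.66 ± 0.76 in HAMSB (SD, n = 4 each). In the order NP, HAMS, HAMSB, HAMSA, the step from NP to HAMS was 1.69 times the pooled SD with no overlap of libraries. HAMS and HAMSB differed by 0.34 of their SD, and HAMSB and HAMSA by 1.67 with overlap.

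**Figure D1:**
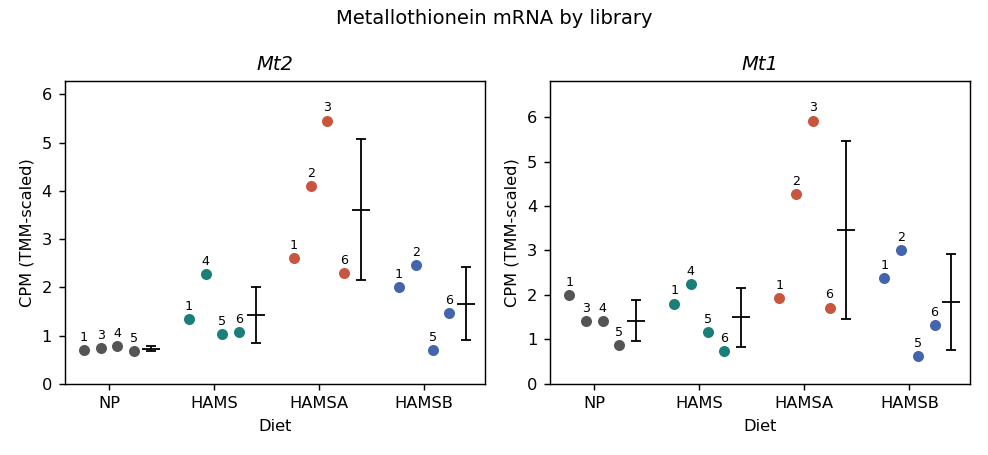
Level of Mt2 (left) and Mt1 (right) in CPM, TMM-scaled, for each of the 16 libraries by diet, with the label number above each point and the mean ± SD of 4 libraries beside it. Mt2 lies between 0.68 and 0.79 CPM in the 4 NP libraries and between 2.29 and 5.46 in the 4 HAMSA libraries, while Mt1 overlaps between every pair of diets.

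Mt1 was also highest in HAMSA, with a spread that covered the other diets. It stood at 2.00, 1.41, 1.41 and 0.86 CPM in NP (libraries in the same order), and at 1.81, 2.25, 1.17 and 0.74 CPM in HAMS. In HAMSA it stood at 1.93, 4.28, 5.93 and 1.72 CPM, and in HAMSB at 2.39, 3.02, 0.62 and 1.32 CPM. HAMSA libraries 2 and 3 were above every other library for both metallothioneins, while HAMSA libraries 1 and 6 were within the range of NP for Mt1. The means were 1.42 ± 0.46 CPM in NP, 1.49 ± 0.67 in HAMS, 3.46 ± 2.01 in HAMSA and 1.84 ± 1.08 in HAMSB (SD, n = 4 each). The step from HAMSB to HAMSA was 1.01 times the pooled SD, and the libraries of all neighbouring diets overlapped. Of the other metallothioneins, Mt3, the form known from brain, had 1 read in 1 NP library, and Mt4, known from stratified epithelium, had 0 reads in all 16. A count of 0 allows up to 3 counts, or 0.065 to 0.20 per 1000000 counted reads depending on the library.

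Mtf1, the sensor of free zinc, had a like level in all diets. It stood at 38.5, 39.7, 42.2 and 41.6 CPM in NP, 35.7, 47.6, 45.1 and 43.6 in HAMS, 41.3, 34.2, 30.6 and 47.5 in HAMSA, and 41.0, 39.0, 46.9 and 43.9 in HAMSB. The lowest values belonged to HAMSA libraries 2 and 3, the same libraries that were highest for Mt1 and Mt2. The mean levels ran from 38.4 ± 7.52 CPM in HAMSA to 43.0 ± 5.15 in HAMS (SD, n = 4 each), and no 2 neighbouring diets differed by more than 0.80 of their pooled SD.

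Slc30a1, which carries zinc out of the cell across the plasma membrane, stood at 33.2, 29.1, 26.1 and 25.9 CPM in NP and at 26.4, 24.4, 41.0 and 36.3 CPM in HAMS. HAMSA libraries had 32.3, 30.6, 23.8 and 28.9 CPM, and HAMSB libraries 25.6, 29.5, 31.3 and 28.5 CPM. HAMS libraries 5 and 6 were the highest of the 16, and every diet overlapped every other. The mean levels ran from 28.6 ± 3.45 CPM in NP to 32.0 ± 7.92 in HAMS (SD, n = 4 each).

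Slc39a10, which brings zinc into the cell, had the widest range of these 3 genes. It stood at 31.3, 25.8, 26.9 and 29.1 CPM in NP, 23.1, 24.5, 35.3 and 35.1 in HAMS, 29.9, 17.97, 11.8 and 34.4 in HAMSA, and 30.1, 27.3, 38.2 and 34.1 in HAMSB. HAMSA libraries 2 and 3 were again apart, here as the lowest of all 16. The mean levels ran from 23.5 ± 10.4 CPM in HAMSA to 32.4 ± 4.75 in HAMSB (SD, n = 4 each), with overlap between all diets.

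**Figure D2:**
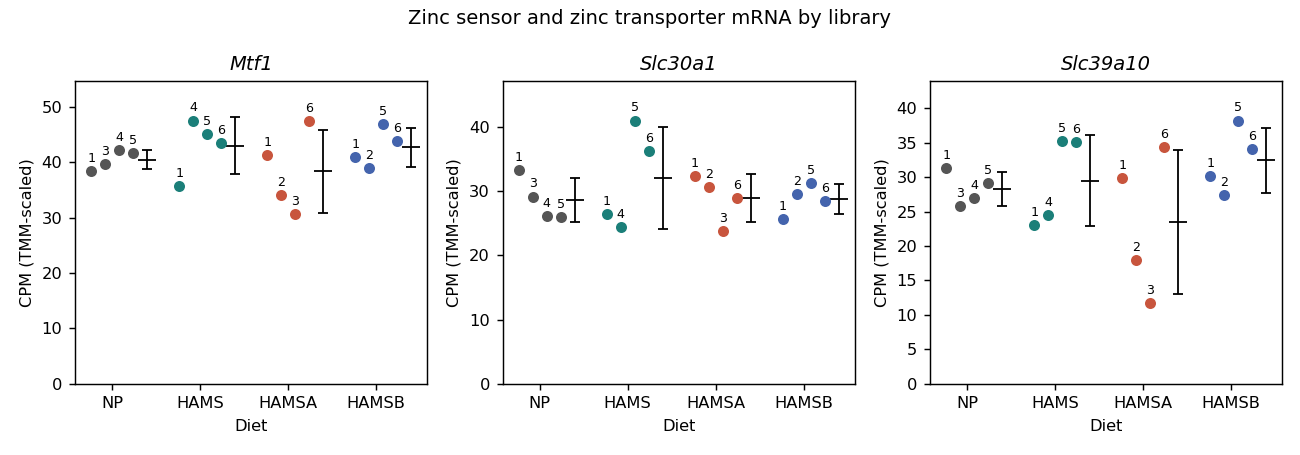
Level of Mtf1, Slc30a1 and Slc39a10 in CPM, TMM-scaled, for each library by diet, with the label number above each point and the mean ± SD of 4 libraries beside it. All diets overlap for the 3 genes, and HAMSA libraries 2 and 3 are the lowest of 16 for Mtf1 and Slc39a10.

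Per kilobase of transcript, the order of the 5 genes differed between diets. Mtf1 had diet means of 5.03 to 5.63 CPM per kilobase, Slc30a1 5.45 to 6.10 and Slc39a10 4.27 to 5.90. The mean level of Mt2 ran from 1.42 CPM per kilobase in NP to 7.07 in HAMSA, so it was the lowest of the 5 genes in NP and the highest in HAMSA. Mt1 ran from 2.58 in NP to 6.31 in HAMSA. The sources used here do not name the authors' annotation, and the length is that of the longest coding transcript in GENCODE M21. No exon base of the 5 genes is shared with another gene on the same strand. No run of 50 bases in a transcript of Mt1, Mt2, Mtf1 or Slc30a1 occurs in a transcript of another gene, and for Slc39a10 0.45% of such runs also occur in Gm6801.

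The fitted differences between diets are given with the SE of edgeR's model of all 16 libraries. Mt2 was higher in HAMSA than in NP by a log2 fold change of 2.30 ± 0.39, and Mt1 by 1.28 ± 0.50. Against NP, Mt2 had log2 fold changes of 1.19 ± 0.38 in HAMSB and 0.97 ± 0.38 in HAMS, where Mt1 had 0.38 ± 0.49 and 0.08 ± 0.49. Both metallothioneins were higher in HAMSA than in HAMS, with values of 1.33 ± 0.37 for Mt2 and 1.20 ± 0.50 for Mt1. HAMSA set against HAMSB gave 1.11 ± 0.37 for Mt2 and 0.90 ± 0.49 for Mt1. HAMSB and HAMS, the butyrylated and the plain starch, differed by 0.22 ± 0.37 for Mt2 and 0.30 ± 0.49 for Mt1. The comparisons share diets, so their values are not independent of each other.

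The other 3 genes differed little. Log2 fold changes of Mtf1 ran from −0.16 ± 0.12 in HAMSA against HAMS to 0.09 ± 0.12 in HAMS against NP. Those of Slc30a1 ran from −0.16 ± 0.15 in HAMSB against HAMS to 0.16 ± 0.15 in HAMS against NP. Slc39a10 had its largest value in HAMSA against HAMSB, at −0.46 ± 0.25, and −0.26 ± 0.25 in HAMSA against NP. Mt2 in HAMSA against NP was the member past the threshold of 0.05 after Benjamini-Hochberg adjustment in edgeR's quasi-likelihood test, 1 of 5 members, where 1.41% of all 15021 genes passed. Its libraries also did not overlap between these diets, which held for 16.4% of all genes. Mt2 did not overlap either between HAMS and NP (1 of 5 members, 12.6% of all genes) and between HAMSA and HAMS (1 of 5 members, 4.01% of all genes). The group was chosen on these same differences, so nothing is read from these counts.

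**Figure D3:**
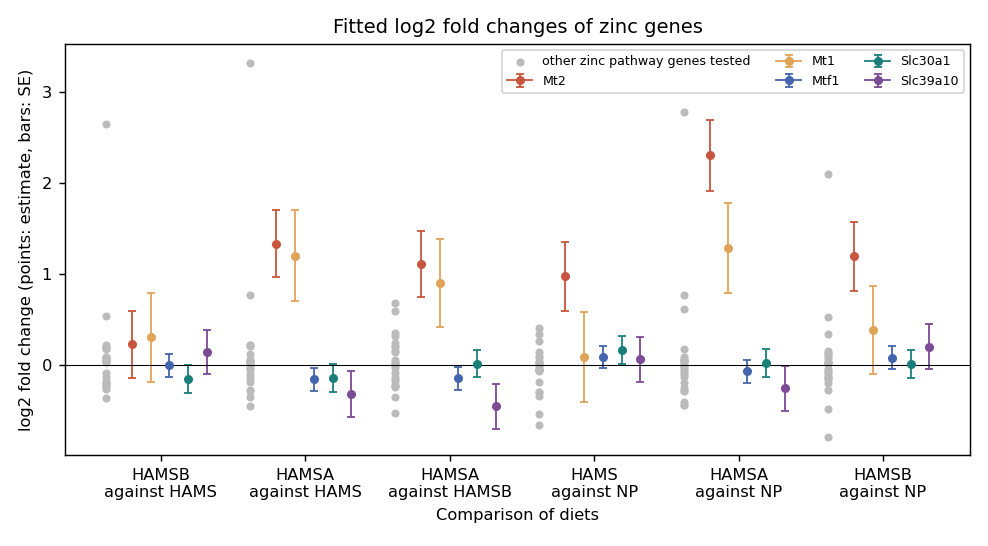
Fitted log2 fold change and SE of the 5 genes in each of the 6 comparisons of diets, with the other 24 tested zinc pathway genes as grey points. Mt2 has its highest value, 2.30, in HAMSA against NP, Mtf1, Slc30a1 and Slc39a10 lie near 0, and the grey point far above the others, up to 3.32, is Slc30a10.

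The size of the Mt2 difference depended on which libraries and terms entered the fit. Within the libraries numbered 1 to 4 in the labels, Mt2 stood at 0.71 to 0.79 CPM in 3 NP libraries and 2.60 to 5.46 in 3 HAMSA libraries, and within numbers 5 and 6 at 0.68 CPM in 1 NP and 2.29 in 1 HAMSA library. Without HAMSA libraries 2 and 3, the log2 fold change of Mt2 in HAMSA against NP was 1.74 ± 0.42 and that of Mt1 0.36, and the count of members past the threshold went from 1 to 0, while that of all genes went from 212 to 8. The members' count was also 0 without NP library 3, 4 or 5, without HAMSA library 2 and with the replicate number as a block. Of all genes, 4, 0, 3, 1 and 0 passed in these fits, so calls were lost across genes and nothing particular to Mt2 is read from its own.

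Within diets, 7 of the 10 pairs of genes had a correlation across libraries that passed the threshold in r, and 3 of these also passed in rho. This spread was not used to choose them. After the diet mean was taken from each log2 CPM, Mt1 and Mt2 had a Pearson r of 0.91 over 16 libraries (permutation p = 0.00018, adjusted p = 0.0018 over 10 pairs of genes) and a Spearman rho of 0.91 (permutation p = 0.00067). Without HAMSA library 3 and HAMSB library 5, the r was 0.87. Both metallothioneins ran opposite to the importer. Mt2 and Slc39a10 had an r of −0.78 (permutation p = 0.00041, adjusted p = 0.00205; rho −0.84, permutation p = 0.0016), or −0.87 without HAMS library 4 and HAMSB library 5. Mt1 and Slc39a10 had an r of −0.78 too (permutation p = 0.00135, adjusted p = 0.0045; rho −0.78, permutation p = 0.00623).

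Of the other 7 pairs, 4 passed in r with an adjusted permutation p of 0.0263 each and none of these in rho, where each had an adjusted permutation p of 0.0811. Mtf1 and Slc39a10 ran together (r 0.82), as did Slc30a1 and Slc39a10 (0.63), while Mt1 with Mtf1 (−0.69) and Mt2 with Slc30a1 (−0.60) ran opposite. Mt2 with Mtf1 had an r of −0.56 (adjusted permutation p = 0.0799), Mt1 with Slc30a1 −0.45 (0.104) and Mtf1 with Slc30a1 0.26 (0.434).

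The balance between short and long transcripts in a library moved with all 5 genes. It is measured here as the median log2 CPM of the 671 tested genes with a transcript of at most 1000 bases minus that of the 2446 with one of at least 5000 bases. The metallothionein transcripts are short, at 549 bases for Mt1 and 511 for Mt2, and those of Mtf1 (7631), Slc30a1 (5244) and Slc39a10 (5498) are long. The difference lay between −1.87 and −1.75 in the NP libraries. In HAMS libraries 1, 4, 5 and 6 it was −1.27, −1.36, −2.05 and −1.90, in HAMSA libraries 1, 2, 3 and 6 it was −1.60, −0.97, −0.87 and −1.87, and in HAMSB libraries 1, 2, 5 and 6 it was −1.77, −1.48, −2.40 and −1.95. The highest 2 values were those of HAMSA libraries 2 and 3, which had the most Mt1 and Mt2 of all libraries, and the lowest was that of HAMSB library 5, which had the least Mt1.

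Within diets, this difference had an r of 0.86 with Mt1, 0.89 with Mt2, −0.79 with Mtf1, −0.62 with Slc30a1 and −0.89 with Slc39a10 over the 16 libraries, given as a description. Genes in general followed it in the same way. The median r with Mt2 within diets was 0.80 over the 508 genes with transcripts of at most 1000 bases and −0.68 over the 2080 with at least 5000. With the difference removed from both genes, Mt1 and Mt2 had an r of 0.64 (adjusted permutation p = 0.122) and Mt2 and Slc39a10 one of 0.05 (adjusted permutation p = 0.921). With it as a term in the fit, the log2 fold change in HAMSA against NP was 1.55 ± 0.25 for Mt2, with 1 member past the threshold, and 0.17 for Mt1. With the share of reads outside annotated exons as the term instead, Mt2 had 1.29 ± 0.35 with 0 members past it, and Mt1 had −0.04. Of all genes, 9 passed with this share as the term, against 212 in the fit reported. Nothing particular to Mt2 is read from either count of members.

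**Figure D4:**
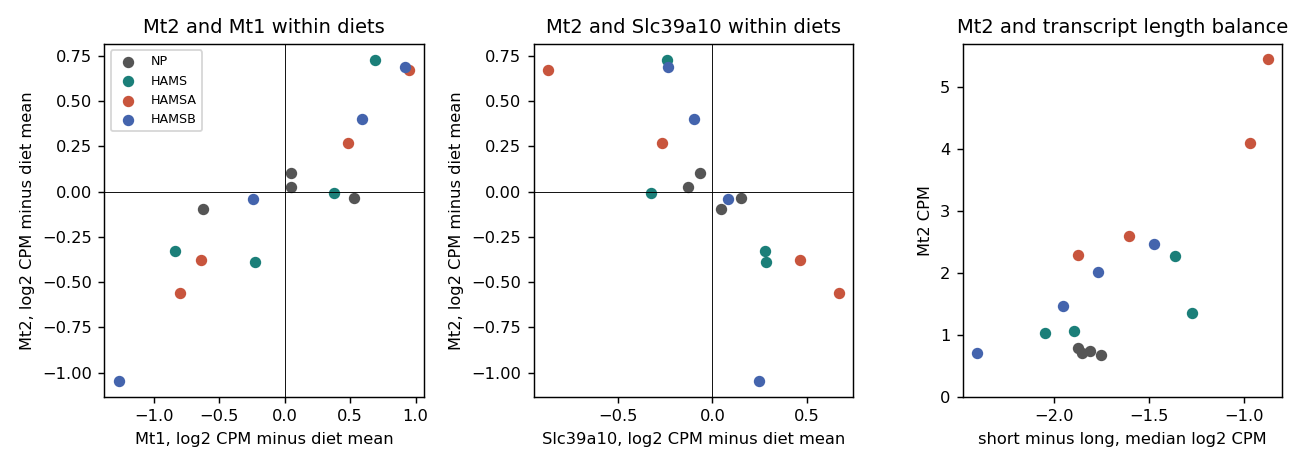
Each point is 1 of 16 libraries, coloured by diet: Mt2 against Mt1 (left) and against Slc39a10 (middle), as log2 CPM minus the diet mean, and the CPM of Mt2 against the median log2 CPM of short minus long transcripts (right). Mt2 follows Mt1 with an r of 0.91 and runs opposite to Slc39a10 with an r of −0.78, and the 2 libraries at the upper right of the right panel, at −0.97 and −0.87, are HAMSA 2 and 3.

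The other genes of the zinc pathway were tested between diets. The list holds 31 further genes, of which 24 were tested. In edgeR's quasi-likelihood test with adjustment over all genes, 0 of the 24 passed in each of the 6 comparisons. At an unadjusted p under 0.05 there were 5 in HAMSB against HAMS, 3 in HAMSA against HAMS, 4 in HAMSA against HAMSB, 4 in HAMS against NP, 4 in HAMSA against NP and 2 in HAMSB against NP. In the same order, 14.1%, 11.7%, 19.4%, 19.3%, 25.1% and 6.89% of all genes had such a p. DESeq2 called 2 in HAMS against NP, 1 in HAMSA against HAMSB and 0 in the others. Of all 15021 genes, edgeR called 1.68% in HAMSB against HAMS, 0% in HAMSA against HAMS, 0.779% in HAMSA against HAMSB, 4.33% in HAMS against NP, 1.41% in HAMSA against NP and 0.0732% in HAMSB against NP. The median log2 fold change of the 24 lay between −0.05 and 0.04 in the 6 comparisons, and that of all genes between −0.0040 and 0.012.

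Among the ZnT transporters, which carry zinc out of the cytosol, Slc30a5, a loader of the secretory pathway, was the most abundant per length at 42.9 CPM per kilobase over 16 libraries. Its log2 fold changes ran from −0.16 ± 0.08 in HAMSA against HAMSB to 0.19 ± 0.08 in HAMSB against HAMS (adjusted p = 0.281 and 0.282 in edgeR's quasi-likelihood test). Slc30a9, a mitochondrial zinc transporter, had 0.34 ± 0.11 in HAMS against NP (edgeR adjusted p = 0.0964) and was one of the 2 genes that DESeq2 called there. Among Slc30a4, Slc30a6 and Slc30a7, the smallest adjusted p of edgeR's test was 0.265, for Slc30a7 in HAMSA against HAMSB (−0.23 ± 0.11).

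Slc30a10, known above all as a manganese exporter, was scarce and ran with Mt2. It stood at 0.25, 0.32, 0.14 and 0 CPM in NP, 0.27, 0.16, 0.029 and 0 in HAMS, 0.96, 2.54, 1.26 and 0.064 in HAMSA, and 0.94, 1.91, 0.084 and 0.065 in HAMSB. HAMSA and HAMSB libraries 1 and 2, with HAMSA library 3, were above the rest, and HAMSA and HAMSB libraries 6 were not. Its log2 fold change in HAMSA against NP was 2.78 ± 1.10 (edgeR adjusted p = 0.145) and its r with Mt2 over the 16 libraries was 0.70. The erythroid markers Klf1 and Car1 had an r with Mt2 of 0.71 and 0.82, where 11 tested had 0.34 to 0.82. Klf1 had 451, 589, 187 and 55 counts in HAMSA and 532, 983, 26 and 28 in HAMSB, in the same library order. Hba-a1, also erythroid, had 36058 counts in HAMSA library 6. The part of erythroid RNA in the Slc30a10 level was not tested. With the class of label numbers as a term Slc30a10 passed in HAMSA against NP (2.75, edgeR adjusted p = 0.0100), HAMSB against NP (2.64, 0.0249) and HAMSB against HAMS (2.64, 0.0157).

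Among the ZIP transporters, which bring zinc into the cytosol, Slc39a1 led per length at 23.9 CPM per kilobase, ahead of Slc39a9 (12.6) and Slc39a6 (11.1), the partner of Slc39a10 in a plasma membrane complex. Slc39a6 ran from −0.19 ± 0.14 in HAMSB against HAMS to 0.13 ± 0.14 in HAMSA against HAMSB, with adjusted p = 0.597 and 0.594 in edgeR's test. Slc39a14, which also carries iron, had −0.29 ± 0.12 in HAMSA against NP (edgeR adjusted p = 0.168), and Slc39a8, known from inflammation, 0.76 ± 0.47 (0.308). Slc39a7, which releases zinc from the endoplasmic reticulum, shows only 1.30 CPM per kilobase, but 80.7% of its exon bases are shared with Gm20427 on the same strand and reads there may not be counted, so its level is uncertain.

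Other carriers and other genes reported to depend on Mtf1 gave no call in edgeR's test either. Mcoln1, a lysosomal channel that passes zinc among other ions, had −0.30 ± 0.09 in HAMS against NP (edgeR adjusted p = 0.0828, DESeq2 adjusted p = 0.0430). Tmem163, a vesicular zinc transporter, had 0.31 ± 0.10 in HAMSA against HAMSB (edgeR adjusted p = 0.134, DESeq2 adjusted p = 0.0362). Selenow, a selenoprotein, had 0.61 ± 0.25 in HAMSA against NP (edgeR adjusted p = 0.152), while Gclc, which starts glutathione synthesis, had −0.04 ± 0.14 (0.874), Csrp1 0.08 ± 0.16 (0.748) and Ndrg1 −0.09 ± 0.15 (0.700).

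**Figure D5:**
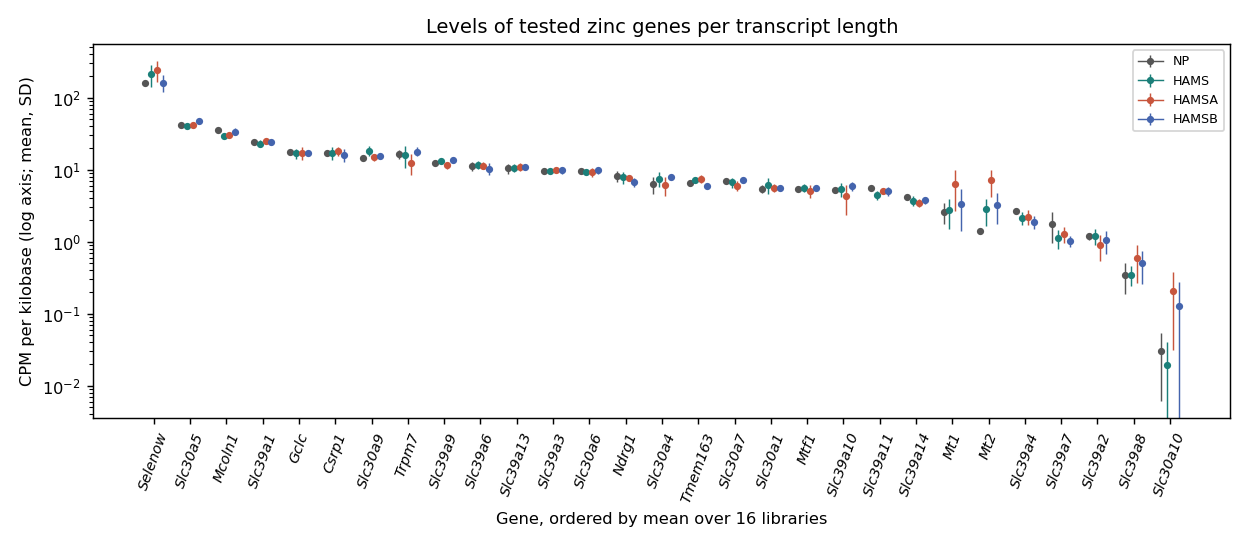
Mean level and SD of 4 libraries per diet, in CPM per kilobase of transcript on a log axis, for the 5 genes and the 24 other tested zinc pathway genes, ordered by the mean over 16 libraries. Mt2 spans 1.42 to 7.07 CPM per kilobase between diets, and the most abundant gene of the pathway after Selenow is Slc30a5, at 42.9 over all libraries.

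Metallothioneins also bind copper. Of 9 copper handling genes, 0 passed edgeR's test in each comparison, with 2 at an unadjusted p under 0.05 and 1 called by DESeq2 in HAMS against NP. The smallest adjusted p in edgeR's test was that of Slc31a1, the copper importer, in HAMS against NP (0.35 ± 0.10, adjusted p = 0.0551). The median log2 fold change of the list in HAMSA against NP was 0.15.

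Genes that answer to the other known inducers of metallothioneins were mostly called in HAMS against NP and in HAMSB against HAMS. In these comparisons Mt2 had log2 fold changes of 0.97 ± 0.38 and 0.22 ± 0.37. Calls were also made in HAMSA against HAMSB, where Mt2 had 1.11 ± 0.37 and edgeR called 0.779% of all genes. There 3 of 11 glucocorticoid targets and 3 of 10 immediate early genes were called higher, with 0 NRF2 targets and 0 heat shock genes called. Whether Mt2 follows any of these lists was not tested. Of 9 tested NRF2 targets, which answer to oxidative stress, 1 passed edgeR's test in HAMS against NP, and that was Hmox1, the heme-degrading oxygenase. Hmox1 stood at 52.9, 52.8, 42.9 and 28.2 CPM in NP and at 16.8, 10.1, 7.65 and 3.04 CPM in HAMS, a log2 fold change of −2.23 ± 0.55 (edgeR adjusted p = 0.0326). It was lower in all HAMS than in all NP libraries, where Mt2 was higher. With each of the 8 libraries left out in turn, its adjusted p in edgeR's test lay between 0.0242 and 0.0953, and it passed without NP library 5 or HAMS library 1 but not without any of the other 6. Macrophage and monocyte markers, 10 genes, summed to 199 to 487 CPM in NP and 127 to 253 in HAMS, and 5 of the 10 were called lower there. Their part in the Hmox1 difference was not tested.

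Of 11 glucocorticoid targets, 3 rose and 1 fell in HAMS against NP by edgeR's test, where 4.33% of all genes were called, and 3 fell in HAMSB against HAMS, where 1.68% were. Dusp1, a phosphatase that turns off MAP kinases, was higher in HAMS than in NP by 1.85 ± 0.25 (edgeR adjusted p = 0.00132), and Tsc22d3, the glucocorticoid-induced leucine zipper, by 1.29 ± 0.25 (0.00936). Both were lower in HAMSB than in HAMS, with log2 fold changes of −2.27 ± 0.25 (edgeR adjusted p = 0.000312) and −2.01 ± 0.26 (0.000833). The median log2 fold change of the list was 0.42 in HAMS against NP and −0.34 in HAMSB against HAMS, against 0.012 and 0.0053 over all genes.

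Heat shock genes rise with proteotoxic and metal stress. Of 13, 10 rose in HAMS against NP, with Hspd1, a mitochondrial chaperonin, at 1.23 ± 0.19 (edgeR adjusted p = 0.00221), and 11 fell in HAMSB against HAMS, with Hspd1 at −1.16 ± 0.19 (0.00451). These counts went down to 4 without NP library 3 or 4 and to 4 without HAMS library 4, and with the replicate number as a block they were 4 and 7. Of all genes, 378 and 163 passed with the block in these 2 comparisons, against 650 and 252 in the fit reported. Of 10 immediate early genes, 6 rose in HAMS against NP and 6 fell in HAMSB against HAMS, where 4.33% and 1.68% of all genes were called. Ier2, one of them, had 1.21 ± 0.12 (edgeR adjusted p = 0.000335) and −0.98 ± 0.12 (0.000485) in these comparisons.

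In HAMSA against NP, edgeR called 1.41% of all genes, against 4.33% in HAMS against NP, and the counts of these lists in both comparisons were not tested against each other. The genes called were Hspd1 among the heat shock genes (0.80 ± 0.19, edgeR adjusted p = 0.0485), Zbtb16, a transcription factor, among the glucocorticoid targets (−2.37 ± 0.51, 0.0395), and 6 immediate early genes with Ier2 at 0.95 ± 0.12 (0.00787). Without HAMSA libraries 2 and 3, the counts were 2 heat shock genes, 0 glucocorticoid targets and 2 immediate early genes, and DESeq2 called 5, 2 and 8 over all libraries. With the replicate number as a block all 3 counts were 0. With 1 library left out, the heat shock count was 0 except without HAMSA library 3, where it was 3, and the glucocorticoid count was 0 except without HAMSA library 6, where it was 1. The immediate early count was 0 without NP library 4, 1 without NP library 5 or HAMSA library 2, 2 without NP library 3 or HAMSA library 1, 3 without NP library 1, and 6 without HAMSA library 3 or 6. Of all genes, 4, 0, 3 and 1 passed without NP library 3, 4 or 5 or HAMSA library 2, against 212 in the fit reported. With the replicate block 0 of all genes passed, and without HAMSA libraries 2 and 3 together 8 did. Calls were thus lost across genes, and nothing particular to these lists is read from their counts. Of the NRF2 targets 0 passed edgeR's test or DESeq2 in HAMSA against NP, with 2 at an unadjusted p under 0.05 in edgeR's test.

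The genes whose level over the 16 libraries was most like that of Mt2, by Pearson's r of log2 CPM among the 11538 genes with an average log2 CPM of at least 1, were Gm12178 (0.90), Fam212a (0.89), Cox6b2 (0.89), Ube2h (0.88), Ubac2 (0.88), Blvrb (0.87), Ngfrap1 (0.87) and Mrps28 (0.87). Mt1 had an r of 0.84 on this measure. With the diet means removed, the closest were Psmc2, a subunit of the proteasome (0.98), the mitochondrial ribosome gene Mrps21 (0.98), Pole3 (0.97), Frg1 (0.97) and Mcee (0.97). These r values share the libraries and the transcript length balance described above and are descriptions.

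Markers of other spleen cells were present, and their sums for neutrophils and for T cells were higher in HAMSA than in NP. In bulk RNA, fewer cells of a type and less RNA per cell cannot be told apart. The 12 erythroid markers summed to 128 to 1542 CPM in NP, 118 to 204 in HAMS, 618 to 6571 in HAMSA and 102 to 1682 in HAMSB. In HAMSA libraries 1, 2, 3 and 6 the erythroid sum was 1701, 6571, 618 and 6376 CPM, beside 2.60, 4.10, 5.46 and 2.29 CPM of Mt2. Globin genes led this sum, with 47518 counts of Hba-a1 against 1108 of Car1 in HAMSA library 2, so it says little of the other erythroid markers. Across all 16 libraries, which differ in diet and depth, the 11 erythroid markers tested had a Pearson r with Mt2 of 0.34 to 0.82, with a median of 0.54. The part of erythroid RNA in the Mt2 difference was not tested. The 10 neutrophil markers summed to 9.07 to 65.3 CPM in NP and 79.1 to 329 in HAMSA, and the 9 T cell markers to 76.1 to 106 in NP and 115 to 224 in HAMSA. No marker of these 3 lists was at 0 in all libraries of a diet. Neutrophil and T cell sums thus separated HAMSA from NP as Mt2 did. Within the T cell sum, Lck had the most counts, with 2166 in NP library 1 and 1337 in HAMSA library 3. Cd4 had 309 and 85 counts there, from totals of 31707731 and 15053965, and so was lower per counted read in HAMSA library 3. Lck was higher per counted read there. These 2 libraries had the highest T cell sum in NP and the lowest in HAMSA, at 106 and 115 CPM. The separation thus belongs to a sum led by Lck. It was not shown for the other T cell markers together, since a sum without Lck was not tested. All 9 T cell markers still had a fitted log2 fold change above 0 in HAMSA against NP. The part of neutrophil and T cell RNA in the Mt2 difference was not tested.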

How the data were processed

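Stranded poly(A) libraries of magnetically selected splenic B cells were sequenced. Per the submitters' processing notes, the authors aligned reads with STAR, counted them with featureCounts of the Subread package and used edgeR and limma; the sources used here give no versions, genome build or annotation. As deposited, the table holds unscaled counts per gene for reverse-stranded libraries. Per the deposited counting summary, which holds counts of reads by class, reads that map to several places or outside exons (9.76% to 16.9% of a library) are not in it.

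Counts were fitted in R 4.3.3 with edgeR 4.0.16 (expression filter with a minimum count of 10, TMM scaling, 1 mean per diet, 16 libraries, 12 residual degrees of freedom). The quasi-likelihood F-test was adjusted by Benjamini-Hochberg over 15021 genes with a threshold of 0.05. CPM are counts scaled to a total of 1000000 over the tested genes after TMM. Total counts per library limit the precision, and edgeR's common estimate of the variation within a diet was 22.1%. Correlations used log2 CPM with a prior count of 2 and 100000 permutations of libraries within diets (numpy 2.4.6). The ranks for rho and the binomial intervals came from scipy 1.17.1. The edgeR code was also run on simulated counts with the same spread for every gene. That simulation held no transcript length balance and no other cell types. It therefore does not show how the test behaves on these libraries.

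The members and gene lists were chosen with earlier results of these data known. Genes named are the 5 members, Mt3, Mt4, list genes with the smallest p among those called (up to 4 per list and comparison), and the genes most like Mt2. The uncalled zinc and copper genes described were chosen after their values were seen, as were the erythroid and T cell markers named. Alternatives were DESeq2 1.42.0, other scalings and filters, only the 2 diets compared, a replicate block, terms for label number, reads outside exons and transcript length, each library left out, Spearman's rho and another prior count. The terms for reads outside exons and transcript length, the joint removal of HAMSA libraries 2 and 3, and the counts of members and stress lists under the alternatives were chosen after seeing the data. A gene of the B cell marker list is not reported here.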

Additional observations from a re-analysis of the deposited data

How the results depend on the processing

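With Mt2 at 23 to 107 counts in a library, counting error alone is large, and HAMSA libraries were the shallowest. The fold changes of Mt2 in HAMSA against NP ran from 2.02 to 2.46 with 1 library left out. Under the share of reads outside exons, the transcript length difference and the removal of HAMSA libraries 2 and 3 they were 1.29, 1.55 and 1.74. In HAMSA against HAMS they were 0.67 with the share outside exons and 0.77 without HAMSA 2 and 3, and in HAMSA against HAMSB 0.24 and 0.37 with the share and the length difference. The causes were not tested.

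The count of other zinc pathway genes past the threshold moved from 0 in HAMS against NP to 1 with library totals (Mcoln1), 1 with the class of label numbers (Mcoln1), 2 with DESeq2 (Slc30a9 and Mcoln1), and 3 each with the share outside exons and the length difference (Slc30a9, Slc39a11 and Mcoln1). Of all genes, 798, 1044, 1264, 1157 and 1976 passed in these fits, against 650. In HAMSB against HAMS it was 1 with the number class and 3 with the length difference (Slc30a9, Slc30a10 and Tmem163), and it was 1 in HAMSA against NP and in HAMSB against NP with the number class and 1 in HAMSA against HAMSB with DESeq2. Of all genes, 368 and 919 passed in these fits of HAMSB against HAMS (252 in the fit reported), 1531 in HAMSA against NP (212), 51 in HAMSB against NP (11) and 600 in HAMSA against HAMSB (117). With 1 library left out it was 0 in every comparison.

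Of the members, 2 passed in HAMSA against NP with the number class as a term, and 1 in HAMS against NP; 1 passed in HAMSB against NP with the length difference. Of all genes, 1531, 1044 and 34 passed in these fits, against 212, 650 and 11.

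Same-numbered libraries of different diets had correlated deviations in 8 of 15 pairs (r over 0.1, median 0.19). This was more often than in the pairs with other numbers, 29 of 81 (median −0.06). The ranges of r overlapped, at −0.25 to 0.49 and −0.44 to 0.49. The fit reported held no term for the number all the same, so an effect shared by same-numbered libraries is not excluded. With the replicate block, Mt2 had 2.15 in HAMSA against NP, 0 members and 0 of all genes passed there, and 0 pathway genes passed in each comparison. Slc39a10 had −0.20 in HAMS against NP.

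Spearman's rho no longer passed for Mt1 with Mtf1 (−0.60), Mt2 with Slc30a1 (−0.58), Mtf1 with Slc39a10 (0.70) and Slc30a1 with Slc39a10 (0.65). Mt2 with Mtf1 passed with library totals (−0.62). With the length difference removed, r was 0.64 for Mt1 with Mt2, −0.0042 for Mt1 with Mtf1, −0.059 for Mt1 with Slc39a10, −0.13 for Mt2 with Slc30a1, 0.055 for Mt2 with Slc39a10, whose sign turned, 0.42 for Mtf1 with Slc39a10 and 0.22 for Slc30a1 with Slc39a10. With 1 library left out, r ran from −0.84 to −0.60 (Mt1 with Mtf1), −0.57 to −0.34 (Mt1 with Slc30a1), −0.80 to −0.43 (Mt2 with Mtf1), −0.69 to −0.47 (Mt2 with Slc30a1), 0.73 to 0.94 (Mtf1 with Slc39a10) and 0.54 to 0.74 (Slc30a1 with Slc39a10). Mt1 with Mt2 and both metallothioneins with Slc39a10 passed with each library left out.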
